A study of Mus musculus with 6 samples.

Results

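Mir10a and Mir10b are the 2 miR-10 genes of the mouse, and they were followed through 6 small RNA libraries of whole testis. A read belonged to a gene if it had 18 to 26 nt and lay without mismatch on the sense strand of the gene's hairpin. They are 2 of 2202 annotated microRNA (miRNA) genes, 1653 of which had at least 1 read. The genes were chosen by their measured read counts in these libraries, so their levels are given as a description and were not tested.

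The Miwi2 knockout (KO) was compared with wild-type (WT) littermates at 10 days post partum (dpp), and the Dnmt3L KO with its WT littermates at 10 dpp and at 16.5 days post coitum (dpc). All mice were C57BL/6. Each library was 1 pool of animals, 7 or 8 at 16.5 dpc and 3 at 10 dpp, so no group has a second library and no spread between animals can be given. Miwi2 encodes a PIWI protein that carries piRNAs into the nucleus of fetal germ cells, and Dnmt3L encodes a cofactor of the DNA methyltransferases that act there. In whole testis, fewer cells of a type and less RNA per cell cannot be told apart. The deletions themselves were not checked here, since small RNA reads do not cover them.

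A miRNA is cut from a hairpin transcript, first by Drosha and then by Dicer, and 1 arm of the hairpin (5p or 3p) is usually kept in an Argonaute protein. Bases 2 to 8 of the mature strand, the seed, pair with target mRNAs, so a strand that starts 1 base later presents another seed. Drosha sets the 5′ end of the 5p arm. The miR-10 genes lie inside Hox gene clusters, which pattern the body axis, and Hox mRNAs are among their known targets.

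Mir10a lies at chr11:96317165-96317274 (GRCm38, plus strand), between Hoxb4, 993 bases downstream, and Hoxb5, 11044 bases upstream, and overlaps no other annotated gene. Mir10b lies at chr2:74726070-74726137 (plus strand) inside introns of Hoxd3 and Hoxd4. The mature strands and hairpins of RefSeq (GRCm38.p6) are shown because everything below is measured against their ends. In mature strands the seed is in capitals, and in hairpins the capitals mark the mature 5p strand.
mmu-miR-10a-5p: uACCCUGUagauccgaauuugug
mmu-miR-10b-5p: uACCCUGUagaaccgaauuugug
mmu-miR-10a-3p: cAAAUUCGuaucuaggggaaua
mmu-miR-10b-3p: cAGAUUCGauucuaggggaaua
Mir10a hairpin: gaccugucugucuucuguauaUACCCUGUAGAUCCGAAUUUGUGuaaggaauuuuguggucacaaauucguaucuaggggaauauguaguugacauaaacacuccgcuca
Mir10b hairpin: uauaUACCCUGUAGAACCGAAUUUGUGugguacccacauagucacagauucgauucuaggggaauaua

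Both 5p strands have 23 bases, share the seed ACCCUGU and are identical at 22 positions. They differ only by U12A (Mir10a's base first, positions counted from 1 at the 5′ end), so reads of the 5p arm are told apart by that 1 base. The 3p strands are identical at 19 of 22 positions and differ by A3G, U9A and A10U, which gives them different seeds. The nearest relatives in sequence fall into 2 further seed groups, ACCCGUA in miR-99a and miR-100 and CCCUGAG in miR-125a and miR-125b.
mmu-miR-99a-5p: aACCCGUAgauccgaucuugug
mmu-miR-100-5p: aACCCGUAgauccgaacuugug
mmu-miR-125a-5p: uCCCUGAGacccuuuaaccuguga
mmu-miR-125b-5p: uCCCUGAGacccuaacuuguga

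The libraries held 28701563 to 47232494 reads, of which 25.6% to 75.5% were miRNA reads of 18 to 26 nt, 12101706 to 24433370 per library. Levels are reads per 1e6 miRNA reads of the library. The smallest level that can be told from 0 (3 counts) was 0.123 to 0.248. Intervals are given at 95% and hold counting error alone, because each group is 1 pooled library. PCR copies of a molecule could not be told from separate molecules, so the intervals may be too narrow even for counting error. The libraries also fell into 3 pairs by their changed bases, which are the pairs of line and age, and into 2 sets by their longest reads. The longest reads were 100 nt in both Dnmt3L libraries of 10 dpp and 50 nt in the other 4 libraries. Among 5p reads of both genes, the share with exactly 1 changed base in the first 18 was 4.55% and 4.97% in the Miwi2 KO and WT, 1.11% and 1.09% in the Dnmt3L KO and WT of 10 dpp, and 4.69% and 4.48% in those of 16.5 dpc. The changed positions were shared within each pair. U1G led in the fetal pair (2.23% in the Dnmt3L KO and 2.09% in the WT) and C4G in the Miwi2 pair (1.51% in KO testes and 2.07% in WT testes), while in the Dnmt3L pair of 10 dpp no position exceeded 0.132%. The testis label was checked by Mir202 of Sertoli cells, present in all libraries with levels of 103 to 800.2. The erythroid markers summed to 25.1 to 103 and the haematopoietic markers to 101 to 212. Each KO is set against the WT of its own pair, with the same longest read and a similar share of changed bases. The ages of the Dnmt3L line and the lines at 10 dpp differ in longest read and in changed bases. These differences cannot be told apart from age or line, and their source was not tested.

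**Figure D1:**
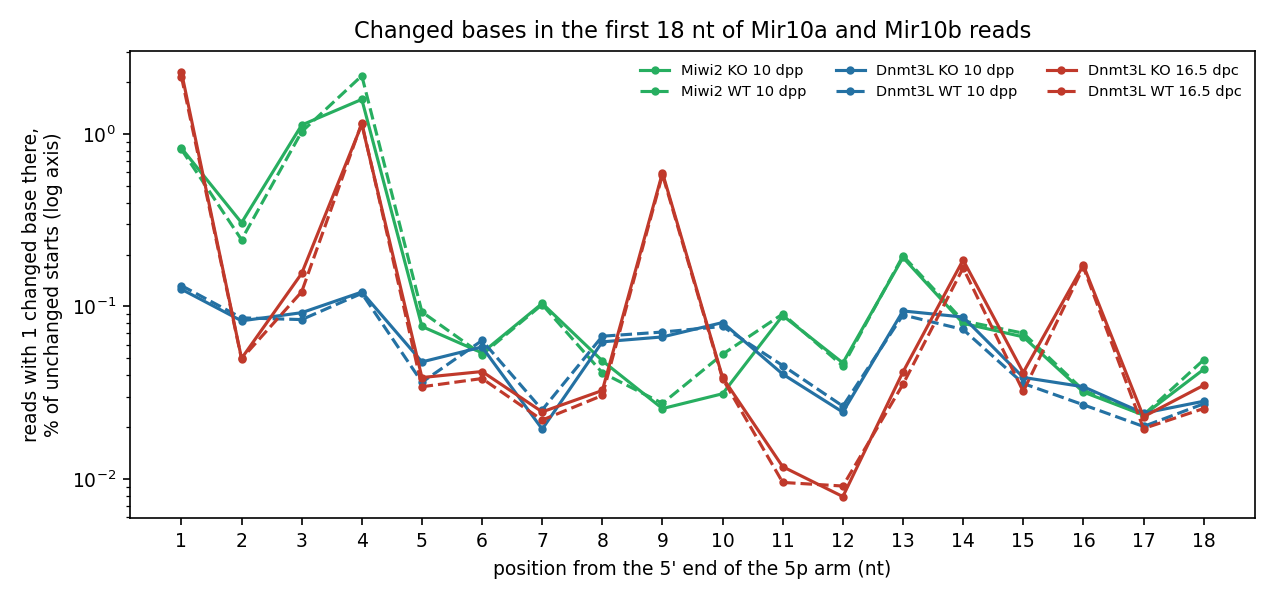
Reads with 1 changed base at each of the first 18 positions of the 5p arm, as a percentage of unchanged starts of Mir10a and Mir10b together, on a log axis. Solid lines are KO and dashed lines WT libraries, and the lines of each KO and WT pair run together while the 3 pairs differ.

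The base that separates the genes was read far more precisely than the genes differ in number. C at position 12, which belongs to neither gene, was found in 0.00213% to 0.0111% of starts and G in 0.00575% to 0.0359%. At the other 5 A positions of the 5p arm, A was read as U in 0.00331% to 0.173% of starts. Mir10a starts were 3.33% to 10.7% of Mir10b starts, so misreading of Mir10b at position 12 at any of these rates would supply only a small part of Mir10a.

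Mir10b was the most abundant miRNA gene in all 6 libraries. In the Miwi2 line it had 2133611 reads in KO testes and 2443814 in WT testes, 14.9% and 13.8% of all miRNA reads. In the Dnmt3L line of 10 dpp it had 7298351 reads in KO testes and 10129362 in WT testes, 33.7% and 41.5% of miRNA reads. These are 25.4% of all reads of the KO library and 26.6% of all reads of the WT library. At 16.5 dpc it had 2370704 reads in the Dnmt3L KO and 3231344 in the WT, 19.6% and 26.1% of miRNA reads. Its reads were 1.79 to 10.2 times those of the gene in the second place. That gene was Mir22 in the Miwi2 KO and the Dnmt3L KO of 10 dpp, Mir181a-2 in the Miwi2 WT and the Dnmt3L KO of 16.5 dpc, Mir143 in the Dnmt3L WT of 10 dpp and Mir127 in the Dnmt3L WT of 16.5 dpc.

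Mir10a, with the same seed, was much less abundant. In the Miwi2 line it had 96895 reads in KO testes and 137833 in WT testes, at ranks 33 and 29 among miRNA genes. In the Dnmt3L line of 10 dpp it had 513847 reads in the KO, at rank 10, and 384548 in the WT, at rank 15. At 16.5 dpc it had 172926 reads in the Dnmt3L KO, at rank 15, and 349170 in the WT, at rank 10.

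**Figure D2:**
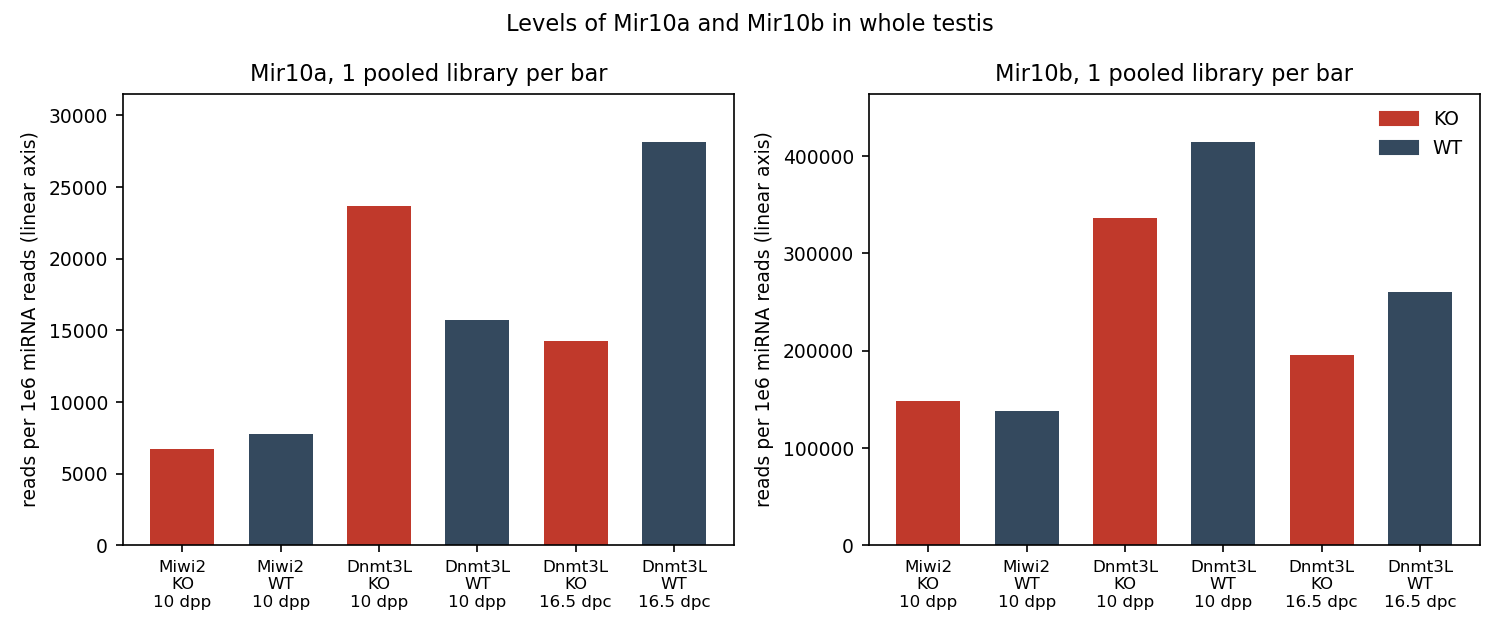
Reads of Mir10a (left) and Mir10b (right) per 1e6 miRNA reads in each library, with KO bars left of their WT and 1 pooled library per bar. Mir10a runs from 6752 in the Miwi2 KO to 28155 in the Dnmt3L WT of 16.5 dpc, and Mir10b from 137691 in the Miwi2 WT to 414571 in the Dnmt3L WT of 10 dpp.

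The genes did not put the libraries in the same order. From low to high, Mir10a had levels of 6752 in the Miwi2 KO, 7766 in the Miwi2 WT, 14289 in the Dnmt3L KO of 16.5 dpc and 15739 in the Dnmt3L WT of 10 dpp. The highest were 23706 in the Dnmt3L KO of 10 dpp and 28155 in the Dnmt3L WT of 16.5 dpc, 4.17 times the lowest. Mir10b had 137691 in the Miwi2 WT, 148674 in the Miwi2 KO, 195898 in the Dnmt3L KO of 16.5 dpc and 260560 in the Dnmt3L WT of 16.5 dpc. Its highest levels were 336711 in the Dnmt3L KO of 10 dpp and 414571 in the Dnmt3L WT of 10 dpp, 3.01 times the lowest. The intervals of neighbours in both orders do not overlap, with 6709 to 6794 for the lowest Mir10a level. They hold the counting of reads alone, and there is no spread between animals to set the differences against. By miRNA reads both genes were lowest in the Miwi2 pair, and Mir10a was highest at 16.5 dpc but Mir10b at 10 dpp, each time in the Dnmt3L WT. The order depends on the scaling. Per 1e6 of all reads, Mir10a was highest in the Dnmt3L KO of 10 dpp (17903, against 8241 in the Dnmt3L WT of 16.5 dpc) and Mir10b lowest in the Dnmt3L KO of 16.5 dpc (50192, against 54295 in the Miwi2 WT). TMM factors, which centre the libraries on trimmed means, put both genes highest in the Dnmt3L KO of 10 dpp.

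The share of Mir10a in the reads of both genes needs no scaling between libraries. It was 4.34% in the Miwi2 KO and 5.34% in the Miwi2 WT, 6.58% in the Dnmt3L KO and 3.66% in the Dnmt3L WT at 10 dpp, and 6.80% in the Dnmt3L KO and 9.75% in the Dnmt3L WT at 16.5 dpc. There were 22.02 and 17.7 Mir10b reads per Mir10a read in the Miwi2 KO and WT, 14.2 and 26.3 in the Dnmt3L KO and WT of 10 dpp, and 13.7 and 9.25 in those of 16.5 dpc. The Dnmt3L KO libraries of both ages had nearly the same share, and their WT libraries were the highest and the lowest of the 6.

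For comparisons between libraries, a difference was called only by its size. The limit was a log2 ratio of 2.53 (5.79-fold) in either direction. It is the 95th percentile of the size of differences between the Miwi2 WT and the Dnmt3L WT of 10 dpp, over 315 miRNA genes with at least 1000 reads in both libraries together. By miRNA reads neither gene passed it in any of 6 comparisons, which include the pair that set the limit. The libraries of that pair differ in longest read and changed bases, so the limit may be too wide for KO against WT. A ratio inside it therefore does not show that the levels are alike. Other scalings each had their own limit. Under these the genes passed it in the comparison of ages in the Dnmt3L KO and in that of both WT lines. They passed it in none of the 3 between KO and WT.

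The Miwi2 comparison asks what the testis without this PIWI protein contains at 10 dpp. Mir10a had levels of 6752 in KO testes and 7766 in WT testes, 0.869-fold (95% interval 0.862 to 0.877, log2 -0.20). Mir10b had 148674 in KO testes and 137691 in WT testes, 1.08-fold (1.08 to 1.08, log2 0.11), and without the 5 most abundant genes in the total its log2 ratio was -0.07. The limit was passed by 0.643% of 311 miRNA genes in this comparison. Relative to the median log2 ratio of all miRNA genes (-0.09), which removes the effect of any scaling, Mir10a stood at -0.11 and Mir10b at 0.20. Among marker miRNAs, the 5 annotated X-linked spermatogenic genes summed to 34065 in KO testes and 15767 in WT testes, Sertoli Mir202 had 800.2 in the KO and 475 in its WT, and endothelial Mir126a 1860 in the KO and 1148 in its WT. The early germ cell genes summed to 68.7 in the KO and 90.5 in its WT. Of these, Mir295 had 33.0 in the KO and 50.6 in its WT, and Mir291a 23.4 in the KO and 21.6 in its WT. The 5 peritubular and mesenchymal genes summed to 45658 in KO testes and 44590 in WT testes. Most of this sum was Mir143, with 37413 in the KO and 35932 in its WT (log2 0.06). Mir214 was also higher in the KO (log2 0.54). Mir145a, Mir199a-1 and Mir199a-2 were lower in the KO, with log2 ratios of -0.14, -0.13 and -0.13. The part of these marker genes in the Mir10 values was not tested.

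The Dnmt3L comparison at 10 dpp addresses young testes that developed without this cofactor, and here the genes lay on opposite sides of 1. Mir10a had levels of 23706 in KO testes and 15739 in WT testes, 1.51-fold (1.50 to 1.51, log2 0.59). Mir10b had 336711 in KO testes and 414571 in WT testes, 0.812-fold (0.811 to 0.813, log2 -0.30), but 0.04 on the log2 scale with TMM factors. Relative to the median of all miRNA genes (0.25), Mir10a stood at 0.34 and Mir10b at -0.55. The limit was passed by 25.0% of 296 miRNA genes, of which 70 were lower and 4 higher in the KO, but 61 of these 74 had most of their reads in sequences shared by several miRNA genes. No read of Mir10a or Mir10b was shared with another miRNA gene. The X-linked spermatogenic genes summed to 7325 in KO testes and 28112 in WT testes, and the early germ cell genes to 47.9 in the KO and 59.8 in its WT. Of these, Mir290a was at 0 in the KO and at 0.246 in its WT, close to the floor, and Mir295, the only one with at least 1000 reads, had 37.2 in the KO and 43.8 in its WT. The 5 peritubular and mesenchymal genes summed to 41360 in KO testes and 46705 in WT testes. Most of this sum was Mir143, with 31140 in the KO and 40652 in its WT (log2 -0.38). The other 4 genes of the list were higher in the KO, with log2 ratios from 0.46 in Mir145a to 0.80 in Mir214. Sertoli Mir202 had 563 in the KO and 397 in its WT. Their part in the Mir10 values was not tested.

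At 16.5 dpc, when fetal germ cells gain their methylation, both genes had lower levels in the Dnmt3L KO. Mir10a had 14289 in KO testes and 28155 in WT testes, 0.508-fold (0.505 to 0.510, log2 -0.98). Mir10b had 195898 in KO testes and 260560 in WT testes, 0.752-fold (0.751 to 0.753, log2 -0.41). Relative to the median of all miRNA genes (-0.16) these were -0.82 and -0.25. The limit was passed by 2.21% of 271 miRNA genes, and 24.7% of them had an absolute log2 ratio at least as large as that of Mir10a. The 5 peritubular and mesenchymal genes summed to 21308 in KO testes and 41173 in WT testes, mostly through Mir143 with 13321 in the KO and 33592 in its WT. Mir214 of the same list had 2639 in the KO and 943 in its WT. Sertoli Mir202 had 211 in KO testes and 103 in WT testes, and the early germ cell genes summed to 406 in the KO and 569 in its WT. The X-linked spermatogenic genes summed to 5483 in the KO and 4821 in its WT. Of these, Mir881 passed the limit with 28.3 in the KO and 175 in its WT (log2 -2.63), while Mir871 had 5446 in the KO and 4639 in its WT (log2 0.23). Their part in the Mir10 values was not tested.

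**Figure D3:**
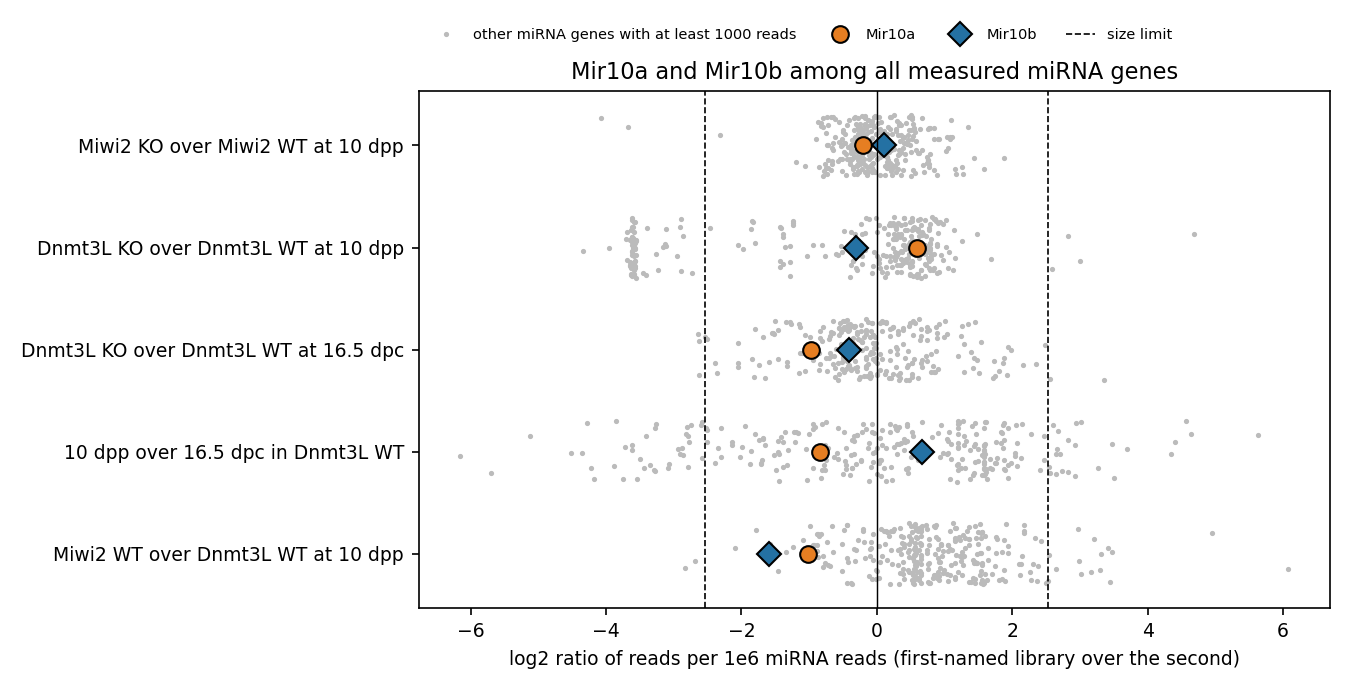
Log2 ratios of Mir10a (circles) and Mir10b (diamonds) among all miRNA genes with at least 1000 reads in both libraries compared together (grey points, spread vertically for view), with dashed lines at the size limit of 2.53 in either direction. By miRNA reads both genes lie inside the limit in the 5 comparisons shown, on opposite sides of 0 in the Miwi2 comparison, in the Dnmt3L comparison at 10 dpp and between ages in the Dnmt3L WT.

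Between ages in the Dnmt3L line, the genes lay on opposite sides of 0 in the WT and on the same side in the KO. In the WT, Mir10a had levels of 15739 at 10 dpp and 28155 at 16.5 dpc (log2 -0.84), and Mir10b had 414571 at 10 dpp and 260560 at 16.5 dpc (log2 0.67). The sign for Mir10a depended on the scaling, with a log2 ratio of -0.07 under TMM and 0.29 by all reads of the library. Relative to the median of all miRNA genes (0.29) Mir10a stood at -1.12 and Mir10b at 0.38. In the KO, Mir10a had 23706 at 10 dpp and 14289 at 16.5 dpc (log2 0.73) and Mir10b had 336711 at 10 dpp and 195898 at 16.5 dpc (log2 0.78), with a median of -0.51. By all reads these log2 ratios were 2.29 and 2.34, both past the limit of 2.28 under that scaling. The median of all miRNA genes was then 1.05, and 86 of 277 passed the limit. Under TMM the ratios were 1.90 and 1.95, inside its limit of 2.19, with a median of 0.66. By miRNA reads the limit was passed by 20.9% of 297 miRNA genes in the WT and by 16.2% of 277 in the KO. In the KO, miRNA reads were 75.5% of all reads at 10 dpp and 25.6% at 16.5 dpc.

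Both genes were lower in the Miwi2 WT than in the Dnmt3L WT of the same age. Mir10a had 7766 in the Miwi2 WT and 15739 in the Dnmt3L WT (log2 -1.02), and Mir10b had 137691 in the Miwi2 WT and 414571 in the Dnmt3L WT (log2 -1.59), while the median miRNA gene stood at 0.66. By all reads the log2 ratios were -1.72 in Mir10a and -2.29 in Mir10b, the second past the limit of 2.28, and under TMM they were -2.27 and -2.84, both past the limit of 2.19. In this pair, 17.5% of 315 miRNA genes had an absolute log2 ratio at least as large as that of Mir10b and 5.08% passed the limit, a share that the choice of the limit fixes. Both libraries are WT of one strain and age, so the gap between them gives a size for differences that no deletion made. By miRNA reads it is larger for both genes than any of their differences between KO and WT. The libraries also differ in longest read and in changed bases.

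Nearly all reads came from the 5p arm. The 3p arm of Mir10a had 70 reads in the Miwi2 KO and 99 in the WT, 168 in the Dnmt3L KO and 72 in the WT at 10 dpp, and 34 in the Dnmt3L KO and 37 in the WT at 16.5 dpc. The 3p arm of Mir10b had 226 reads in the Miwi2 KO and 396 in its WT, 800 in the Dnmt3L KO and 812 in its WT at 10 dpp, and 327 in the Dnmt3L KO and 386 in its WT at 16.5 dpc. The 5p arm thus held at least 99.9% of Mir10a reads in each library, with 1383 to 9436 reads of 5p per read of 3p, and for Mir10b 6170 to 12474. The 3p arm had levels of 15.7 to 36.9 per 1e6 miRNA reads in Mir10b and of 2.81 to 7.75 in Mir10a. By start alone, Mir10b 3p reads began most often 1 base downstream of the RefSeq start, at 38.4% to 58.8%, in every library but the Miwi2 KO. There 37.6% began at the RefSeq start and 29.6% 1 base downstream. Starts 1 base upstream made up 15.5% to 37.3% across the libraries. The most frequent single 3p sequence of Mir10b over all libraries (741 reads) nevertheless started 1 base upstream. That of Mir10a (331 reads) started at the RefSeq start.
Mir10b 3p, most frequent read: aCAGAUUCgauucuaggggaau
Mir10a 3p, most frequent read: cAAAUUCGuaucuaggggaau

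No read matched the antisense strand of either hairpin, which allows a level of up to 0.123 to 0.248, the 3-count floor of the libraries. Reads of 27 to 60 nt inside the hairpins, longer than a mature strand, numbered 0 to 17 per library for Mir10a and 6 to 42 for Mir10b.

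The 5′ end of the 5p arm had a second position. Besides reads at the RefSeq start, a large part started 1 base downstream, with the seed CCCUGUA in place of ACCCUGU. The main read and the most frequent shifted read of each gene are shown with their seeds in capitals. The main read of both genes has 22 nt and ends 1 base before the RefSeq mature strand.
Mir10a, main read: uACCCUGUagauccgaauuugu
Mir10b, main read: uACCCUGUagaaccgaauuugu
Mir10a, shifted by 1 base: aCCCUGUAgauccgaauuugug
Mir10b, shifted by 1 base: aCCCUGUAgaaccgaauuugugu

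For Mir10a, the shifted start made up 24.1% of 5p reads in the Miwi2 KO and 25.2% in the Miwi2 WT, 24.1% in the Dnmt3L KO and 24.5% in the Dnmt3L WT at 10 dpp, and 35.1% in the Dnmt3L KO and 15.4% in the Dnmt3L WT at 16.5 dpc. For Mir10b it made up 13.2% and 13.0% in the Miwi2 KO and WT, 13.4% and 14.3% in the Dnmt3L KO and WT of 10 dpp, and 24.6% and 15.3% in those of 16.5 dpc. The 4 libraries of 10 dpp thus lay close together for each gene, with Mir10a above Mir10b. In the WT of 16.5 dpc the genes had nearly the same share, and in the KO of 16.5 dpc both had their highest share.

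Such a start was uncommon among miRNAs. The median mature arm with at least 1000 reads had 0.125% to 0.252% of its reads 1 base downstream of the RefSeq start. Of 165 to 206 arms per library, 3.64% to 8.05% had a share at least as high as Mir10a and 7.27% to 9.14% one at least as high as Mir10b. Among the relatives, the share was 0.0253% to 0.0636% in Mir99a, 0.306% to 0.607% in Mir100, 0.326% to 0.454% in Mir125a and 2.54% to 5.59% in Mir125b-1. The relatives were not always more uniform at the main 5′ end. In the Dnmt3L WT of 16.5 dpc it held 75.9% of Mir99a reads, against 83.5% in Mir10a and 84.5% in Mir10b. In the KO of that age the shares were 84.6%, 62.8% and 75.2%. At 10 dpp Mir99a had 89.2% to 96.2%, above both genes. Mir100, Mir125a and Mir125b-1 had 94.0% to 99.5% across the libraries. Of all arms in the WT of 16.5 dpc, 19.5% had a share at or below Mir10a and 20.7% one at or below Mir10b. A start 1 base upstream was found in 0.763% to 1.79% of Mir10a reads, with the highest value again in the Dnmt3L KO of 16.5 dpc, but in only 0.000937% to 0.00515% of Mir10b reads.

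**Figure D4:**
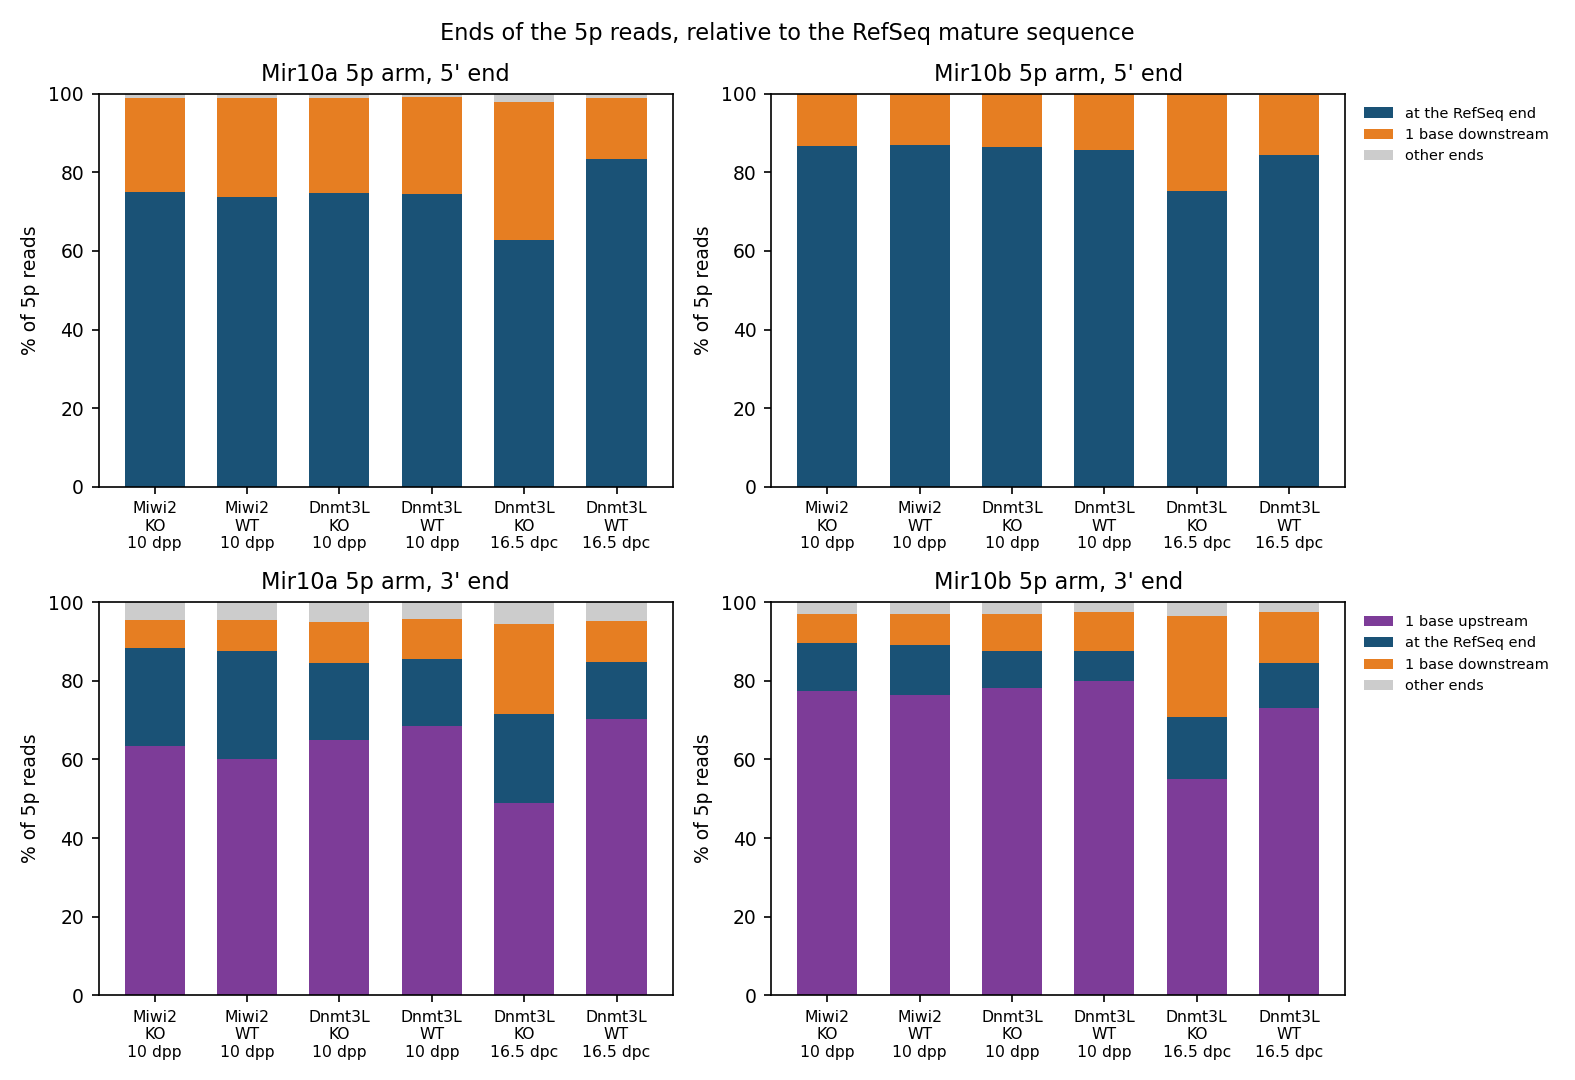
Shares of 5p reads of Mir10a (left) and Mir10b (right) by their 5′ end (top) and 3′ end (bottom), relative to the RefSeq mature strand, for each library with KO left of WT. The Dnmt3L KO of 16.5 dpc has the largest share shifted 1 base downstream at both ends in both genes (35.1% and 24.6% at the 5′ end).

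The Dnmt3L KO of 16.5 dpc stood apart from its WT and from the other 4 libraries at both ends of the 5p strand. Its share of shifted starts was higher than in the WT by 19.7 percentage points in Mir10a, the largest difference of 148 arms, and by 9.32 points in Mir10b, which 5 of the 148 arms reached, Mir10b included. The median arm differed by 4.41e-05 points. Arms between the genes, named after their values were seen, were the 3p arms of Mir409 (16.4), Mir126a (14.4) and Mir296 (10.8), and the 5p arm of Mir152 was lowest with a difference of -16.8 points. With reads that carry untemplated 3′ bases included, 60.4% of Mir10a reads in KO testes and 82.4% in WT testes started at the main end, close to the shares without them (62.8% in the KO, 83.5% in the WT). At 10 dpp the differences were small, at -1.10 points in Mir10a and 0.21 in Mir10b between the Miwi2 KO and WT, and -0.38 and -0.88 between the Dnmt3L KO and WT.

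**Figure D5:**
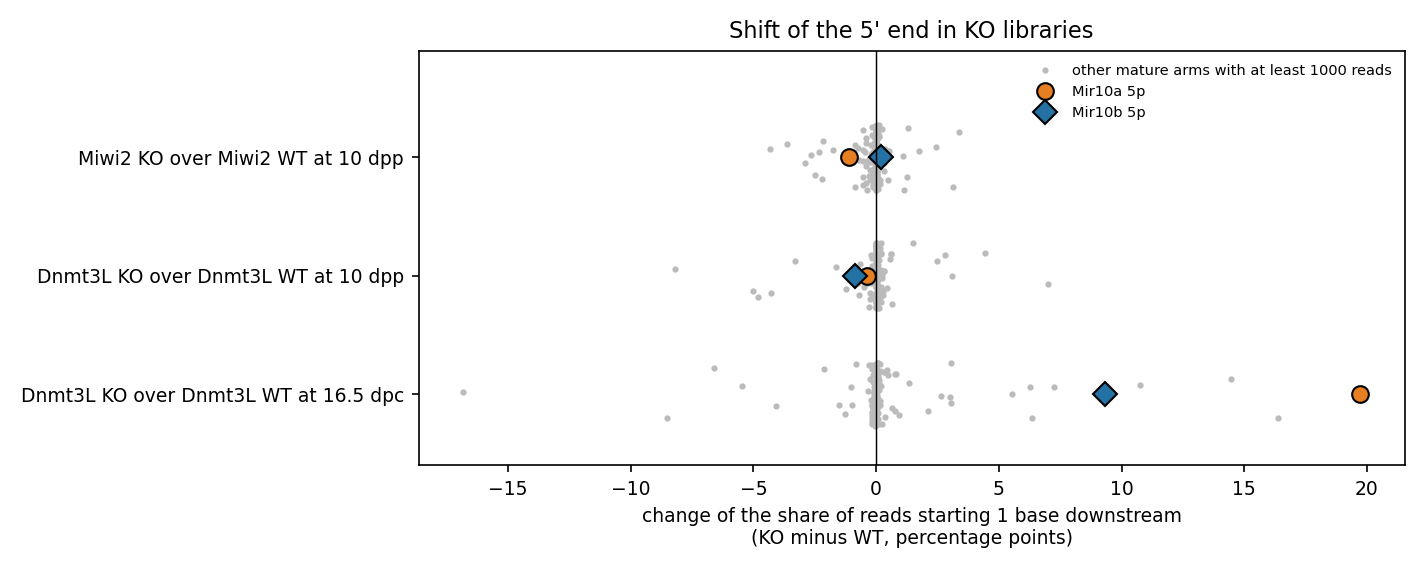
Difference between KO and WT in the share of reads that start 1 base downstream of the RefSeq start, in percentage points, for Mir10a 5p (circles), Mir10b 5p (diamonds) and all other mature arms with at least 1000 reads in each library (grey, spread vertically for view). At 16.5 dpc Mir10a lies at 19.7 and Mir10b at 9.32 points, while both lie within 1.10 points of 0 at 10 dpp.

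The 3′ ends differed in the same library. The share of 22 nt reads in Mir10a was 68.9% and 68.5% in the Miwi2 KO and WT, 67.99% and 69.7% in the Dnmt3L KO and WT of 10 dpp, and 50.1% and 71.2% in those of 16.5 dpc. In Mir10b it was 77.5% and 76.7% in the Miwi2 KO and WT, 77.1% and 78.2% in the Dnmt3L KO and WT of 10 dpp, and 54.5% and 72.6% in those of 16.5 dpc. Reads of 23 nt at 16.5 dpc made up 26.4% of Mir10a reads in the Dnmt3L KO and 13.0% in the WT, and 26.8% of Mir10b reads in KO testes and 14.4% in WT testes. The mean 3′ end lay 0.32 nt further downstream in the KO for Mir10a and 0.29 nt for Mir10b, against 0.02 nt for the median arm. A shift at least as large was found in 8 and 9 of the 148 arms.

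Start and end of a read were not independent. Among Mir10b reads at the RefSeq start, 3.16% to 13.9% ended 1 base past the RefSeq end, but among those shifted at the start 35.5% to 61.8% did. For Mir10a these shares were 4.49% to 14.5% and 15.0% to 38.8%. The Dnmt3L KO of 16.5 dpc had the highest value of each range, so its reads of both starts ended later. Its main read, starting at the RefSeq base with 22 nt, made up 38.8% of Mir10a reads against 64.9% in its WT, and 50.3% of Mir10b reads against 68.7% in its WT. In the 4 libraries of 10 dpp the main read made up 53.6% to 59.9% of Mir10a and 72.4% to 75.4% of Mir10b.

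Bases added after the templated 3′ end, usually A or U put on by terminal transferases, were less frequent than on most miRNAs. Up to 3 such bases were counted. For Mir10a the share of 5p reads with them was 6.86% and 6.60% in the Miwi2 KO and WT, 6.03% and 6.11% in the Dnmt3L KO and WT of 10 dpp, and 9.84% and 4.52% in those of 16.5 dpc. For Mir10b it was 3.87% and 3.44% in the Miwi2 KO and WT, 3.21% and 3.42% in the Dnmt3L KO and WT of 10 dpp, and 6.66% and 4.02% in those of 16.5 dpc. The median arm had 9.65% to 12.7% across the libraries. Both genes again had their highest value in the Dnmt3L KO of 16.5 dpc, although a difference from WT at least as large was found in 35 of 148 arms for Mir10a and 55 for Mir10b.

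An added base equal to the next base of the hairpin was counted as templated. That next base is G after the main read and U after the RefSeq end. Added G or U at these places was therefore missed, and such U would count among reads that end 1 base past the RefSeq end. Among the single added bases that could be counted, A was the most frequent in every library. It made up 70.9% to 95.8% of single added bases in Mir10a and 57.4% to 83.3% in Mir10b. U made up 1.52% to 4.88% in Mir10a and 9.47% to 17.2% in Mir10b. G depended on the library, with 26.5% and 20.4% of single added bases of Mir10a in the Miwi2 KO and WT but 0.850% to 2.24% in the Dnmt3L libraries. In Mir10b it was 32.1% and 24.1% in the Miwi2 KO and WT but 1.39% to 3.59% in the Dnmt3L libraries. The G share thus set the Miwi2 pair apart from the other 4 libraries.

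Other miRNAs of the Hox clusters were scarce. Mir196a-1, Mir196a-2, Mir196b and Mir615, which lie among Hox genes as the miR-10 genes do, summed to 583 and 387 in the Miwi2 KO and WT, 524 and 431 in the Dnmt3L KO and WT of 10 dpp, and 973 and 1163 in those of 16.5 dpc. None of the measured members passed the limit between KO and WT under any of 4 scalings. Mir615 passed it between ages in the Dnmt3L WT, with 64.3 at 10 dpp and 946 at 16.5 dpc (log2 -3.88). In the Dnmt3L KO it also passed, with 90.7 at 10 dpp and 761 at 16.5 dpc (log2 -3.07). By all reads and under TMM, Mir615 lay inside the limit in the KO, and Mir196a-1 and Mir196a-2 passed it on the other side. In the KO, 86 of 277 miRNA genes passed the limit by all reads and 76 under TMM. Between Dnmt3L KO and WT at 16.5 dpc the log2 ratios were 0.24 in Mir196a-2, -1.14 in Mir196b and -0.31 in Mir615, with too few reads for Mir196a-1. At 10 dpp they were -0.06 in Mir196a-1, 0.30 in Mir196a-2, 0.47 in Mir196b and 0.50 in Mir615, and by all reads or TMM all 4 were above 0.

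By miRNA reads the 6 sequence relatives did not pass the limit in any comparison either. Mir99a, Mir99b, Mir100, Mir125a, Mir125b-1 and Mir125b-2 summed to 28465 and 28852 in the Miwi2 KO and WT, 58420 and 54857 in the Dnmt3L KO and WT of 10 dpp, and 101293 and 73912 in those of 16.5 dpc. At 16.5 dpc all 6 had log2 ratios above 0 between the Dnmt3L KO and WT, from 0.28 in Mir125b-2 to 0.89 in Mir100, with a median of 0.46, where Mir10a and Mir10b were below 0. Those signs were the same under the 4 scalings. Between the Miwi2 WT and the Dnmt3L WT all 6 were below 0, from -1.58 in Mir100 to -0.06 in Mir99b, on the same side as Mir10a and Mir10b. This side was again the same under the 4 scalings, and under TMM Mir100 and Mir125a passed the limit. Between ages, Mir99a and Mir100 passed it by all reads in the Dnmt3L WT, both higher at 10 dpp. Under that scaling 127 of 297 miRNA genes passed the limit in this comparison, with a median log2 ratio of 1.42. In the Dnmt3L KO, Mir99a passed the limit by all reads and under TMM, also higher at 10 dpp. Of 277 miRNA genes, 86 passed it there by all reads and 76 under TMM.

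The miRNA genes most like each member over the 6 libraries were ranked by Pearson's r of log2 levels (with a pseudocount of 1) among 384 genes with at least 1000 reads in all. For Mir10b these were Mir146b (r = 0.98), Mir146 (0.91), Mir100 (0.82), Mir24-1 (0.81) and Mir379 (0.76). Mir146b had levels of 188 and 166 in the Miwi2 KO and WT, 701 and 1067 in the Dnmt3L KO and WT of 10 dpp, and 266 and 670 in those of 16.5 dpc, so it kept the order of KO and WT of Mir10b in all 3 pairs. For Mir10a they were Mir382 (0.93), Mir24-2 (0.86), Mir379 (0.85), Mir125b-2 (0.84) and Mir146 (0.84). Mir382 had 15.3 and 23.9 in the Miwi2 KO and WT, 47.7 and 30.2 in the Dnmt3L KO and WT of 10 dpp, and 24.9 and 70.2 in those of 16.5 dpc, again with the KO and WT order of Mir10a. Between Mir10a and Mir10b r was 0.76. Mir146b and Mir382 were picked by their correlation over these same libraries, so their shared order of KO and WT follows in part from that choice. With 6 libraries that share lines, ages and longest reads, these values are descriptions.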

How the data were processed

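Small RNA of whole testis was sequenced in 6 libraries by the authors, with Trizol extraction, Illumina TruSeq small RNA kits and an 18 to 35 nt fraction, per the labels' protocols. Each deposited file gives a read sequence and the raw count of reads with that sequence. The trimming and the aligner were not given in the sources used here, and mm9 is the build in the submitters' processing notes. Reads of 18 to 26 nt were matched without mismatch to the sense strand of miRNA genes of GENCODE M21 (GRCm38), and reads of more than 1 gene were shared out equally. Arms and ends are relative to RefSeq mature strands, which matched both genes. With 1 library per group no test was run. Intervals are exact Poisson (levels), conditional binomial (ratios) and Clopper-Pearson (shares) intervals at 95%. TMM factors came from edgeR 4.0.16, other steps from Python 3.11.15 with SciPy 1.17.1. The counting was tested on simulated data. Genes named are the 2 members, the Hox cluster and relative lists, the marker lists and the 5 genes most correlated with each member. The members and lists were chosen with earlier results of these data known. Of the marker lists, Mir292a and Mir743a were not found under those names and are not analysed here. Alternatives were other totals (all reads, TMM, without the 5 most abundant genes), other read sets (20 to 24 nt, untemplated bases, sequences with at least 10 reads) and, added after seeing the data, 1 misread allowed and every alternative for the ages of the Dnmt3L KO and for both WT lines.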

Additional observations from a re-analysis of the deposited data

Results flagged for a closer look

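In 3 pairs of comparisons a gene had opposite signs under the same contrast. No difference between the ratios was tested, since each rests on 1 library per group. Mir10a had a log2 ratio between Dnmt3L KO and WT of 0.59 at 10 dpp and -0.98 at 16.5 dpc. At 10 dpp, between KO and WT, Mir10a had -0.20 in the Miwi2 line and 0.59 in the Dnmt3L line, and Mir10b had 0.11 in the Miwi2 line and -0.30 in the Dnmt3L line. Between 10 dpp and 16.5 dpc, Mir10a had 0.73 in the Dnmt3L KO and -0.84 in the Dnmt3L WT. None of these passed the size limit of 2.53. By all reads the ratio of Mir10a between ages in the Dnmt3L KO was 2.29, past the limit of 2.28 under that scaling. So were the ratios of 86 of 277 miRNA genes. The signs of Mir10b at 10 dpp and of Mir10a between ages in the WT depend on the scaling.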

How the results depend on the processing

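No paired analysis was possible because each group is 1 pooled library and no test was run. In the 3 comparisons of KO and WT and between ages in the Dnmt3L WT, neither gene passed the size limit under any alternative. In the other 2 comparisons they passed it by all reads (limit 2.28) in 3 values and by TMM (limit 2.19) in 2. Alternatives for these 2 comparisons were chosen after seeing the data. Values are log2 ratios scaled by all reads, by TMM and by miRNA reads without the 5 most abundant genes, in this order. Between Dnmt3L KO and WT at 16.5 dpc Mir10a had -1.17, -1.03 and -0.92 and Mir10b -0.60, -0.47 and -0.36. Between Dnmt3L KO and WT at 10 dpp Mir10a had 0.83, 0.93 and 0.52 and Mir10b -0.065, 0.043 and -0.37. Between Miwi2 KO and WT Mir10a had -0.23, -0.23 and -0.38 and Mir10b 0.078, 0.082 and -0.072. Between 10 dpp and 16.5 dpc in the Dnmt3L WT Mir10a had 0.29, -0.071 and -0.58 and Mir10b 1.80, 1.44 and 0.93. Between ages in the Dnmt3L KO Mir10a had 2.29, 1.90 and 0.87 and Mir10b 2.34, 1.95 and 0.92. Between the Miwi2 WT and the Dnmt3L WT Mir10a had -1.72, -2.27 and -1.37 and Mir10b -2.29, -2.84 and -1.94. Each of these scalings turned 1 of 12 signs. With untemplated 3′ bases Mir10a had -1.004 at 16.5 dpc, 0.56 at 10 dpp and -0.63 between ages, and Mir10b -0.48 at 16.5 dpc, -0.34 and 0.12 at 10 dpp in the Dnmt3L and Miwi2 lines and 0.85 between ages. With reads of 20 to 24 nt Mir10a had -0.97 at 16.5 dpc, and Mir10b -0.40 at 16.5 dpc, -0.30 and 0.11 at 10 dpp in the Dnmt3L and Miwi2 lines and 0.67 between ages. With 1 misread allowed, an alternative chosen after seeing the data, Mir10a had -0.88 between ages and Mir10b -0.41 at 16.5 dpc, 0.10 in the Miwi2 line and 0.62 between ages. Between ages in the Dnmt3L KO the values with untemplated bases, 20 to 24 nt and 1 misread were 0.94, 0.71 and 0.68 in Mir10a and 0.99, 0.77 and 0.73 in Mir10b. Between both WT lines they were -1.10, -1.01 and -0.96 in Mir10a and -1.68, -1.58 and -1.53 in Mir10b. The number of miRNA genes past the limit at 16.5 dpc was 6, against 10 by all reads, 11 by TMM, 11 without the top 5 genes and 2 with untemplated bases. In the Miwi2 line it was 2, against 1 with 20 to 24 nt, and between ages 62 in the WT, against 127 by all reads and 113 by TMM, and 45 in the KO, against 86 by all reads and 76 by TMM. Shares of arms, ends and lengths moved by at most 3.68 percentage points, the largest for 23 nt reads with untemplated bases. Depth does not limit the 5p values, but the 3p arm of Mir10a rests on 34 to 168 reads per library.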
